A study of Mus musculus with 12 samples.

Results

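Translation initiation factors are the proteins that bring a ribosome to the start codon of an mRNA, and their 43 genes are described here in activated CD4 T cells with and without *Rnmt*. They were taken as the genes of the deposited table of 10126 genes with a symbol that starts with Eif1 to Eif6, without the eIF2 kinases, the 4E-BP genes and *Eif4enif1*. By name, 12 of them encode subunits of eIF3, 8 encode subunits of eIF2 or of its exchange factor eIF2B, 11 belong to the eIF4 group and 12 are other factors. All 43 passed the filter on low counts in each comparison. *Eif2s3y*, *Eif3j1*, *Eif3j2* and *Eif4e1b* are in the count files but not in that table and are not members.

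The 12 libraries came from female mice on a C57B6/J background, all homozygous for an *Rnmt* allele with loxP sites around exon 3 (*Rnmt* fl/fl). Control mice lacked the CD4cre transgene and *Rnmt* cKO mice carried it, in which Cd4 regulatory sequence drives Cre from the double positive stage of the thymus onwards, so that the deletion preceded the culture. Naive CD4 T cells from lymph nodes were activated on coated plates (anti-CD3 at 5 ug/ml, anti-CD28 at 1 ug/ml) over 20 h and were given 0.1 mg/ml cycloheximide for 1 min before lysis. Total cytoplasmic RNA (total RNA) and ribosome protected fragments (RPF) were sequenced from 3 control and 3 cKO samples each. The gene counts summed to 15079703 to 22629563 in the total RNA libraries, whereas the RPF libraries were less deep, at 4123271 to 10661356.

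*Rnmt*, the methyltransferase that completes the mRNA cap, checked the labels. It stood at 95.5, 94.1 and 94.3 CPM (reads of a gene scaled to the effective size of the library) in total RNA of control cells and at 29.3, 32.4 and 30.4 CPM in cKO cells. In RPF it was at 104, 87.9 and 98.9 CPM against 10.5, 10.4 and 9.60 CPM. No library went against its label (log2(*Rnmt* cKO/control) -1.62 ± 0.062 (SE) in total RNA and -3.24 ± 0.10 in RPF, n = 3 in each group, adjusted p = 5.8e-06 and 4.8e-06, edgeR quasi-likelihood test).

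Initiation begins when eIF2 delivers the initiator tRNA to the small ribosomal subunit, on which eIF3, eIF1, eIF1A and eIF5 assemble. The eIF4F complex (the cap-binding protein eIF4E, the scaffold eIF4G and the helicase eIF4A) brings that subunit to the capped end of the mRNA, and eIF4B and eIF4H assist the helicase. After the start codon is found eIF2 leaves with GDP and is recharged by eIF2B, while eIF5B joins the large subunit. Resting T cells make little protein and raise these factors on activation, and the mRNAs of several of them, including *Eif3a*, *Eif3e*, *Eif3f*, *Eif3h* and *Eif4b*, are known as TOP mRNAs, which open with a C and a run of pyrimidines and are bound by LARP1.

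The first bases of the transcripts are shown for the eIF3 subunits called in total RNA and for *Eif4b* and *Eif4a2*, which fell in total RNA and rose in TE, to set the sequence at the capped end beside the changes. Each is a window of 30 bases from 10 before to 20 from the RefSeq start of the gene (GRCm38.p6, 5′ to 3′ on the strand of the gene), and capitals mark the longest run on that strand of a C followed by at least 4 further bases that are C or T. The set of RefSeq promoters used here held no entry for *Eif3e* or *Eif3i*. The eIF3 subunits that fell in total RNA come first, then those that rose, then *Eif4b* and *Eif4a2*.
Eif3f, chr7:108934405-108934434, plus strand: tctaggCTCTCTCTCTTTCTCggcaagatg
Eif3k, chr7:28981869-28981898, minus strand: aaccggcgctggtgctgaaagcgCCTTTCC
Eif3l, chr15:79075213-79075242, plus strand: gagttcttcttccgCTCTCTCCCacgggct
Eif3a, chr19:60790674-60790703, minus strand: ctcgggcggcggcgctgccgccgcgaggga
Eif3c, chr7:126566347-126566376, minus strand: ctgctcagagggactcggcagcttagctgg
Eif3d, chr15:77970805-77970834, minus strand: agggccatttacgacagcgctggtcgccgt
Eif3g, chr9:20898571-20898600, minus strand: acccgggctgggagctgcgtggagttaaga
Eif4b, chr15:102073763-102073792, plus strand: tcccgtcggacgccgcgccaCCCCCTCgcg
Eif4a2, chr16:23107458-23107487, plus strand: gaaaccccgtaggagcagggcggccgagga

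Of these eIF3 windows, the 3 of subunits that fell held a run and the 4 of subunits that rose held none, but the split was not as sharp over all members with a window. A run was found in 5 of the 8 that fell in total RNA (*Eif2s3x* and *Eif4b* besides the 3 subunits). One was found in 3 of the 15 that rose (*Eif1ad*, *Eif2b5* and a start of *Eif4e*). Of the 12 that did not pass the test 4 held one (*Eif2b2*, *Eif3b*, a start of *Eif4e2* and *Eif4g1*). *Eif3b*, whose window is not shown, had the largest total RNA fold change of the eIF3 group (0.82, not past the test). *Eif2b5*, which rose, had a run of 14 bases that covered the first base, and *Eif4a2*, *Eif2a* and *Eif2d* fell without a run. In *Eif3f* the run covered the annotated first base, with 11 pyrimidines counted from it, and in *Eif3l*, *Eif3k* and *Eif4b* it lay further in. Such a run is common: 35.8% of the 32851 promoters in the RefSeq table held one in the same window, and 27.3% of the 44 promoters of the 35 members that matched. A start with C and at least 4 further pyrimidines at the first base was found in 2.51% of all promoters and in 4.55% of the members' promoters. The RefSeq starts of the 9 genes shown lay up to 45 bases from the outermost start in the GENCODE annotation, so the first base of the mRNA in these cells is not known.

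In total RNA, 19 of the 43 initiation factor genes rose in *Rnmt* cKO cells, 11 fell and 13 did not pass an adjusted p of 0.05, with a median log2(*Rnmt* cKO/control) of 0.19. Of all 11519 genes tested, 26.3% rose and 28.0% fell, with a median of -0.0037. In RPF, 11 members rose and 3 fell (median 0.04), whereas 14.1% of 11428 genes rose and 15.7% fell (median 0.01). Translation efficiency (TE), the change in RPF relative to that in total RNA, rose for 5 members and fell for 7 (median -0.09), and for 3.22% and 6.55% of 10668 genes (median 0.03). The cKO libraries all lay above the controls for 20 members and all below for 11 in total RNA (30.0 and 32.3% of all genes), for 16 and 5 in RPF (22.2 and 24.3%), and for 10 and 14 in TE taken within each number (16.8 and 15.0%). TE is computed from the same total RNA libraries, so a gene that moved in total RNA and not in RPF has the opposite sign in TE by construction. Leaving out any 1 sample left 16 to 22 increases with 8 to 10 decreases in total RNA. The same fits left 6 to 11 increases with 2 to 3 decreases in RPF, and 3 to 7 increases with 3 to 12 decreases in TE. The TE decreases were lowest without control 1 or cKO 1 and highest without cKO 3, and 11 (with 6 increases) when each sample (genotype and number) was taken as a block across its total RNA and RPF libraries, which added *Eif1*, *Eif4g1*, *Eif4g2* and *Eif5b* to the decreases and *Eif3h* to the increases.

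**Figure D1:**
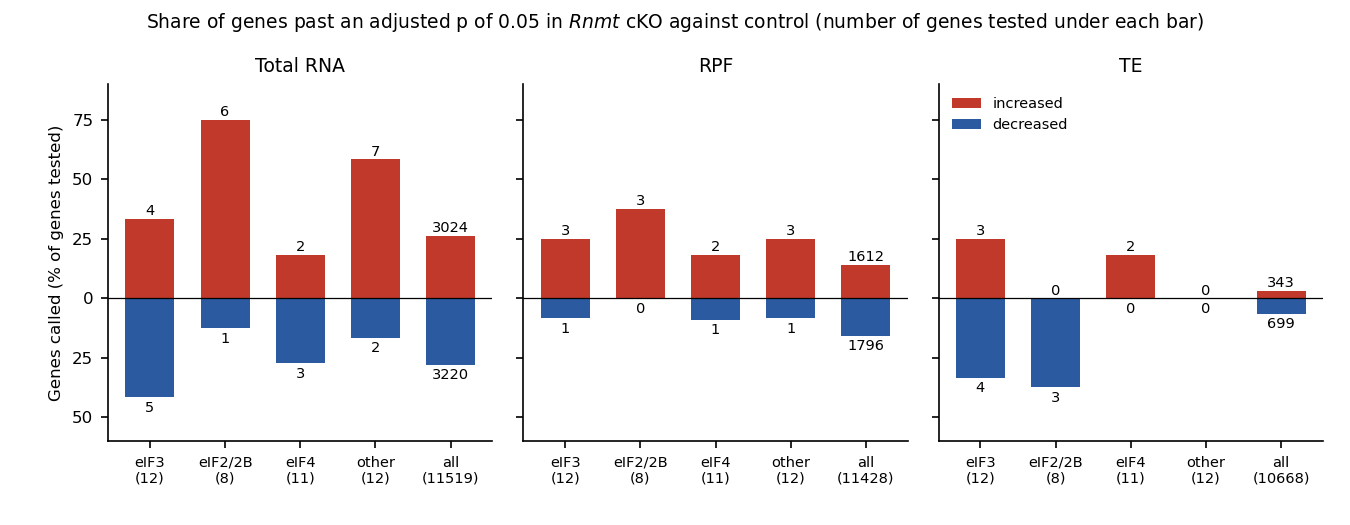
Share of the genes of each group (% of genes tested, linear axis) that rose (red, upwards) or fell (blue, downwards) past an adjusted p of 0.05 in *Rnmt* cKO against control, in total RNA, RPF and TE, with the number of genes at each bar and all genes tested at the right. In total RNA 6 of the 8 eIF2/2B genes rose, while the eIF3 group held 4 increases and 5 decreases.

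All fold changes are relative to the RNA sequenced in a library. The paper measured less mRNA per cell in activated cKO cells than in controls. It cautions that RNA sequencing then understates decreases of single genes and overstates increases. A gene that rose here gained in its share of the RNA sequenced and need not have gained per cell. In these bulk samples fewer cells of a type and less RNA per cell cannot be told apart. The cells carried the markers of CD4 T cells, with 8 of 8 detected, but their summed level was lower in cKO cells (3575, 3440 and 3252 CPM in control and 2490, 2485 and 2889 CPM in cKO total RNA). The summed level of 5 activation markers was higher (577, 583 and 651 against 1073, 1117 and 1003 CPM), and all 5 rose in total RNA. A list of 5 NK cell genes went from 3.40, 5.14 and 4.58 CPM to 25.9, 45.9 and 23.9 CPM in total RNA. Most of it was *Eomes*, which activated T cells can also express (2.44, 3.02 and 3.23 against 20.2, 35.7 and 20.5 CPM), but the other 4 were also higher in every cKO library. *Gzma*, a granzyme, was at 0.265, 0.265 and 0.27 CPM against 2.24, 7.27 and 0.605 CPM, *Klrk1* at 0.584, 1.75 and 1.02 against 2.72, 1.86 and 2.2 CPM, and the receptors *Ncr1* and *Klrb1c*, which define NK cells, stayed at or under 0.619 CPM. The summed total RNA level of the regulatory T cell markers *Foxp3* and *Ikzf2* went from 9.39, 11.6 and 11.5 CPM to 23.6, 21.8 and 21.8 CPM, with *Ikzf2* higher (1.12 ± 0.11, adjusted p = 0.00013) and *Foxp3* at or under 0.902 CPM in total RNA of both genotypes. The B cell list, mostly *Ighm*, lay at 290.5 to 307 CPM in control and at 330.4, 301 and 207 CPM in cKO total RNA, and in RPF at 125, 117 and 181 against 286, 321 and 88.3 CPM. CD8 T cell markers stayed at or under 41.7 CPM and the 6 myeloid markers together at or under 1.02 CPM in total RNA. The part of these differences in the changes of the initiation factor genes was not tested.

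The summed share of each group in the reads counted on genes was also compared. Shares are given of all gene counts, which include mitochondrial rRNA, and of the counts on protein-coding genes, and for eIF3 and eIF4 the choice decided whether the genotypes overlapped. The eIF3 genes took 0.366, 0.370 and 0.367% of all gene counts in control and 0.399, 0.399 and 0.373% in cKO total RNA. Of protein-coding counts they took 0.512, 0.510 and 0.524% against 0.557, 0.520 and 0.501%, which overlap. The eIF4 genes took 0.380% ± 0.0079 (SD, n = 3) and 0.362% ± 0.028 of all gene counts, with overlap. Of protein-coding counts they took 0.533, 0.535 and 0.530% in control and 0.482, 0.515 and 0.468% in cKO libraries, all of them lower. The eIF2/2B genes were higher in every cKO library by both, at 0.0676% ± 0.0028 against 0.0998% ± 0.0033 of all gene counts and 0.0947% ± 0.0025 against 0.135% ± 0.0023 of protein-coding counts. The other 12 factors were also higher in every cKO library by both, at 0.201% ± 0.0023 against 0.258% ± 0.013 and 0.281% ± 0.0024 against 0.348% ± 0.0088.

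In RPF the shares of the eIF3 genes (0.707% ± 0.022 against 0.718% ± 0.044 of all gene counts and 0.769% ± 0.013 against 0.783% ± 0.032 of protein-coding counts) and of the eIF4 genes (0.299% ± 0.0022 against 0.310% ± 0.020 and 0.325% ± 0.0028 against 0.339% ± 0.014) overlapped by both. Those of the eIF2/2B genes were higher in every cKO library, at 0.0932, 0.0827 and 0.0899% against 0.103, 0.108 and 0.0933% of all gene counts and 0.0963% ± 0.0044 against 0.111% ± 0.0058 of protein-coding counts. So were those of the other 12 factors, at 0.332% ± 0.0030 against 0.372% ± 0.013 and 0.361% ± 0.0054 against 0.406% ± 0.010.

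**Figure D2:**
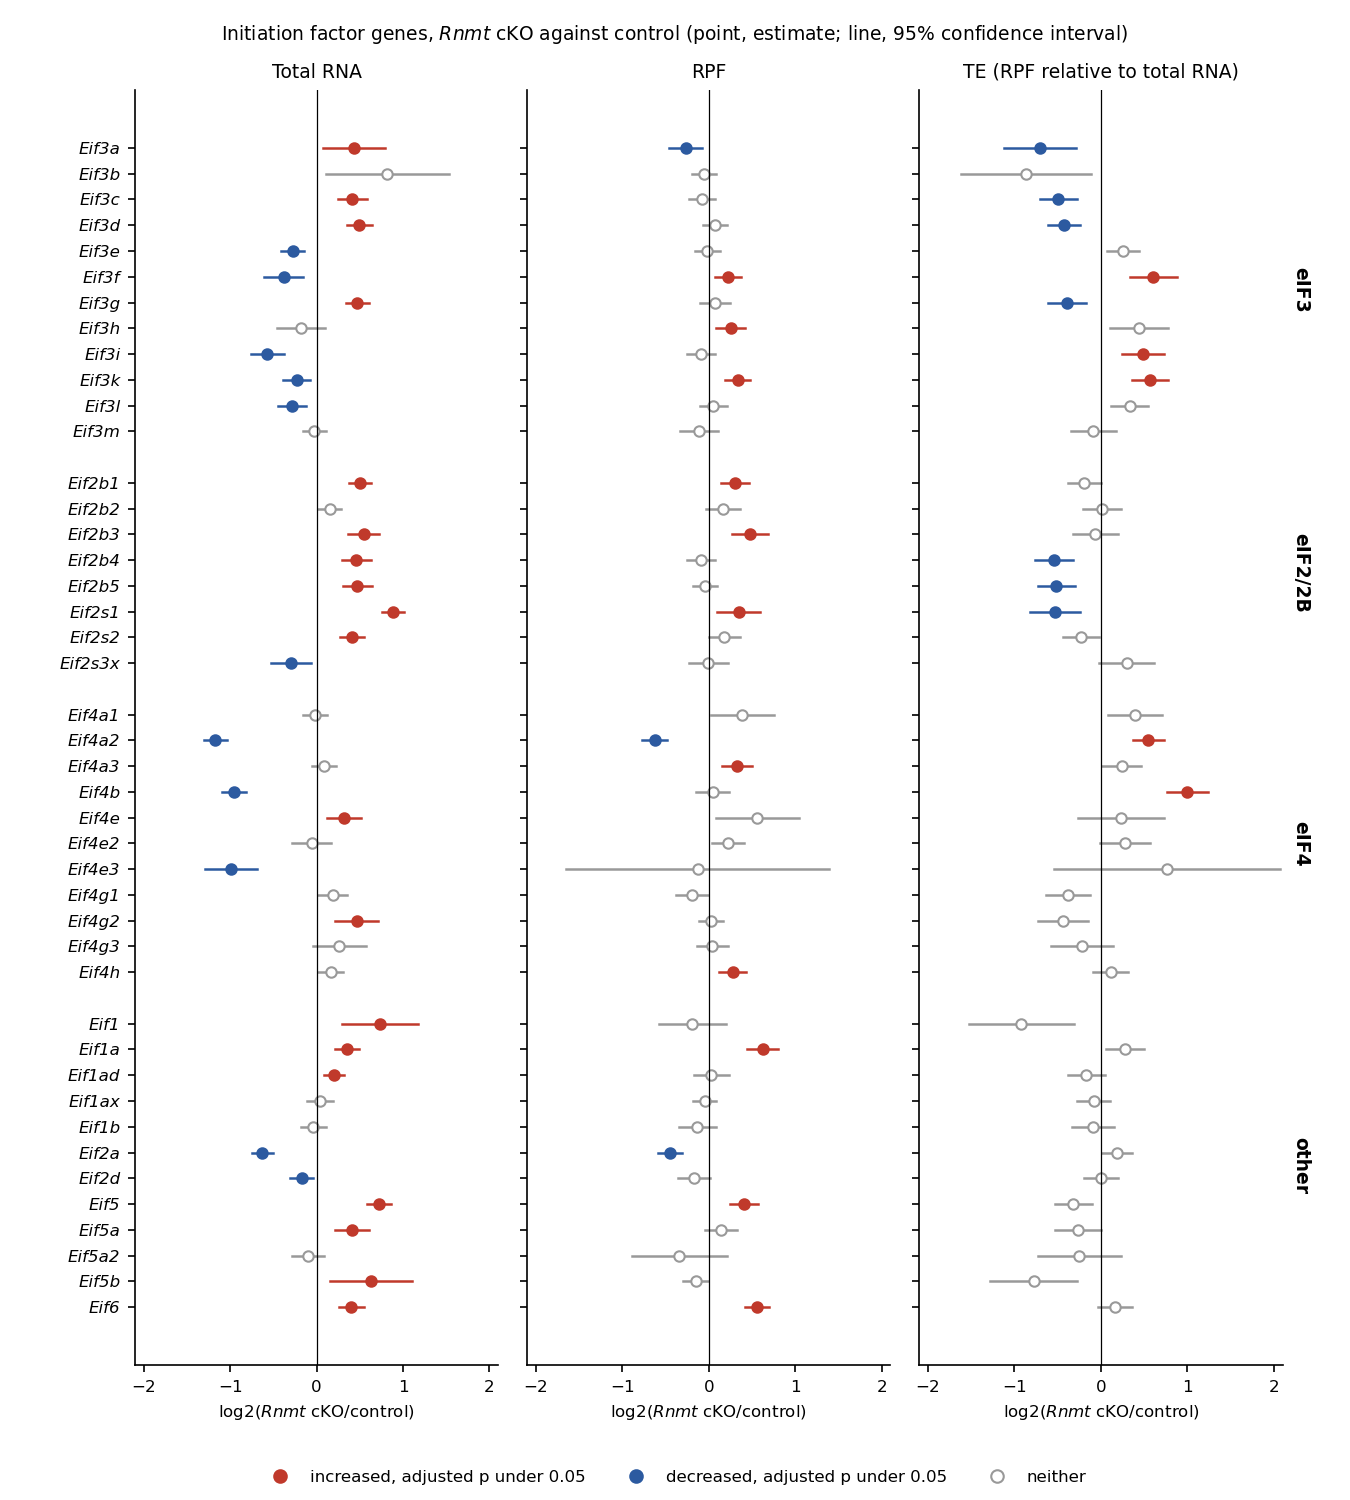
log2(*Rnmt* cKO/control) of the 43 initiation factor genes in total RNA (left), RPF (middle) and TE (right), with 95% confidence intervals derived from the edgeR test, by group. In total RNA the eIF3 subunits lie between -0.57 and 0.82 and in RPF between -0.27 and 0.34, while *Eif4a2*, *Eif4b* and *Eif4e3* stand furthest to the left in total RNA.

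The eIF3 group held calls in both directions, as did all genes tested. In total RNA *Eif3a*, *Eif3c*, *Eif3d* and *Eif3g* rose, *Eif3e*, *Eif3f*, *Eif3i*, *Eif3k* and *Eif3l* fell, and *Eif3b*, *Eif3h* and *Eif3m* did not pass the test. Beside the counts of this group and of those below stand the shares of all genes tested. These were 26.3% up and 28.0% down in total RNA, 14.1% and 15.7% in RPF, and 3.22% and 6.55% in TE. The median of the 12 subunits was -0.10 and their fold changes had an SD of 0.44 over genes, against 0.68 over all genes tested. In RPF the same 12 had a median of 0.02 and an SD of 0.17, against 0.67 over all genes, with 3 increases (*Eif3f*, *Eif3h*, *Eif3k*) and 1 decrease (*Eif3a*). The SDs over all genes include genes near the filter of 1 CPM, where counts are low. The subunits had control RPF means from 241 CPM (*Eif3h*) to 1289 CPM (*Eif3c*). Whether their spread is small among genes of like level was not tested. The sign of the total RNA median rests on which subunits are counted, since it was 0.09 over the 8 subunits with under 20% of their coding sequence shared with transcripts of other genes, of which 3 rose and 4 fell, and -0.052 over all 12 without cKO 3. *Eif3g* rose by 0.47 ± 0.057 (adjusted p = 0.00033) and *Eif3l* fell by 0.28 ± 0.070 (adjusted p = 0.011) in total RNA, *Eif3h* rose in RPF by 0.26 ± 0.073 (adjusted p = 0.031), and *Eif3m* passed the test in no comparison (-0.03 ± 0.060, -0.11 ± 0.094 and -0.09 ± 0.12 in total RNA, RPF and TE).

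*Eif3i*, a WD-repeat subunit that binds the core through eIF3B with eIF3G, had the largest decrease of the group. Its total RNA was at 572, 569 and 514 CPM in control libraries and at 363, 342 and 409 CPM in cKO libraries. The groups did not overlap (log2 fold change -0.57 ± 0.083 (SE), adjusted p = 0.00078). In RPF *Eif3i* was at 643, 591 and 604 CPM against 584, 611 and 537 CPM, ranges that overlap (-0.09 ± 0.070, adjusted p = 0.39), and its TE rose by 0.49 ± 0.11 on the log2 scale (adjusted p = 0.018).

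*Eif3d*, the subunit known to bind the cap of some mRNAs, had the largest called increase. Its total RNA was at 318, 322 and 306 CPM in control and at 449, 419 and 465 CPM in cKO libraries, with no overlap (0.50 ± 0.063, adjusted p = 0.00039). Its RPF were at 626, 624 and 634 CPM against 649.6, 686 and 645 CPM (0.07 ± 0.058, adjusted p = 0.38), so every cKO library was above every control library, but by an amount that did not pass the test. TE of *Eif3d* decreased by 0.42 (SE 0.085, adjusted p = 0.0069).

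*Eif3c*, which forms with *Eif3a* the scaffold of the complex, was at 379, 384 and 411 CPM in control and at 541, 543 and 476 CPM in cKO total RNA, with no overlap (0.41 ± 0.073, adjusted p = 0.002). Its RPF of 1299, 1273 and 1294 CPM in control and 1185, 1289 and 1177 CPM in cKO libraries overlapped. The fold change in RPF was -0.08 ± 0.065 (adjusted p = 0.37), and TE decreased by 0.49 (SE 0.099, adjusted p = 0.0068).

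*Eif3a* rose in total RNA and fell in RPF. Its total RNA was at 359.5, 378 and 459.7 CPM in control and at 619, 583 and 416 CPM in cKO libraries, so cKO 3 lay below control 3 (0.43 ± 0.16, adjusted p = 0.044). Its RPF were at 908, 842 and 919 CPM against 732, 813 and 669 CPM, with no overlap (-0.27 ± 0.084, adjusted p = 0.042). TE decreased by 0.70 (SE 0.19, adjusted p = 0.036).

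*Eif3b*, the subunit that holds *Eif3g* and *Eif3i*, showed the same library apart. It was at 126, 144 and 209 CPM in control and at 367, 323 and 156 CPM in cKO total RNA, and the largest fold change of the group (0.82 ± 0.31) did not pass the test (adjusted p = 0.053). In RPF it was at 794, 791 and 775 CPM against 755, 791 and 731 CPM (-0.05 ± 0.060). *Eif3b* was named after its values were seen.

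*Eif3f* and *Eif3k*, both of the octamer of eIF3, fell in total RNA and rose in RPF. *Eif3f* was at 199, 165 and 194 CPM in control and at 148, 154 and 126 CPM in cKO total RNA, and at 410.2, 402 and 444 CPM against 503, 499 and 465 CPM in RPF. *Eif3k* was at 259, 253 and 249.8 CPM against 214, 200.2 and 235 CPM in total RNA, and at 422, 408 and 441 CPM against 526, 562 and 517 CPM in RPF. In both genes and both kinds of library the genotypes did not overlap.

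For *Eif3f* the log2 fold changes were -0.38 ± 0.097 (adjusted p = 0.011) in total RNA, 0.22 ± 0.066 (adjusted p = 0.034) in RPF and 0.60 ± 0.13 (adjusted p = 0.0087) in TE. For *Eif3k* they were -0.23 ± 0.069 (adjusted p = 0.022), 0.34 ± 0.063 (adjusted p = 0.0055) and 0.57 ± 0.097 (adjusted p = 0.0024). *Eif3e*, a further octamer subunit, fell in total RNA (399, 417 and 389.7 against 336, 328 and 331 CPM, -0.28 ± 0.056, adjusted p = 0.004), while its RPF were at 415, 374 and 400.1 CPM against 397, 379 and 398 CPM (adjusted p = 0.85).

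**Figure D3:**
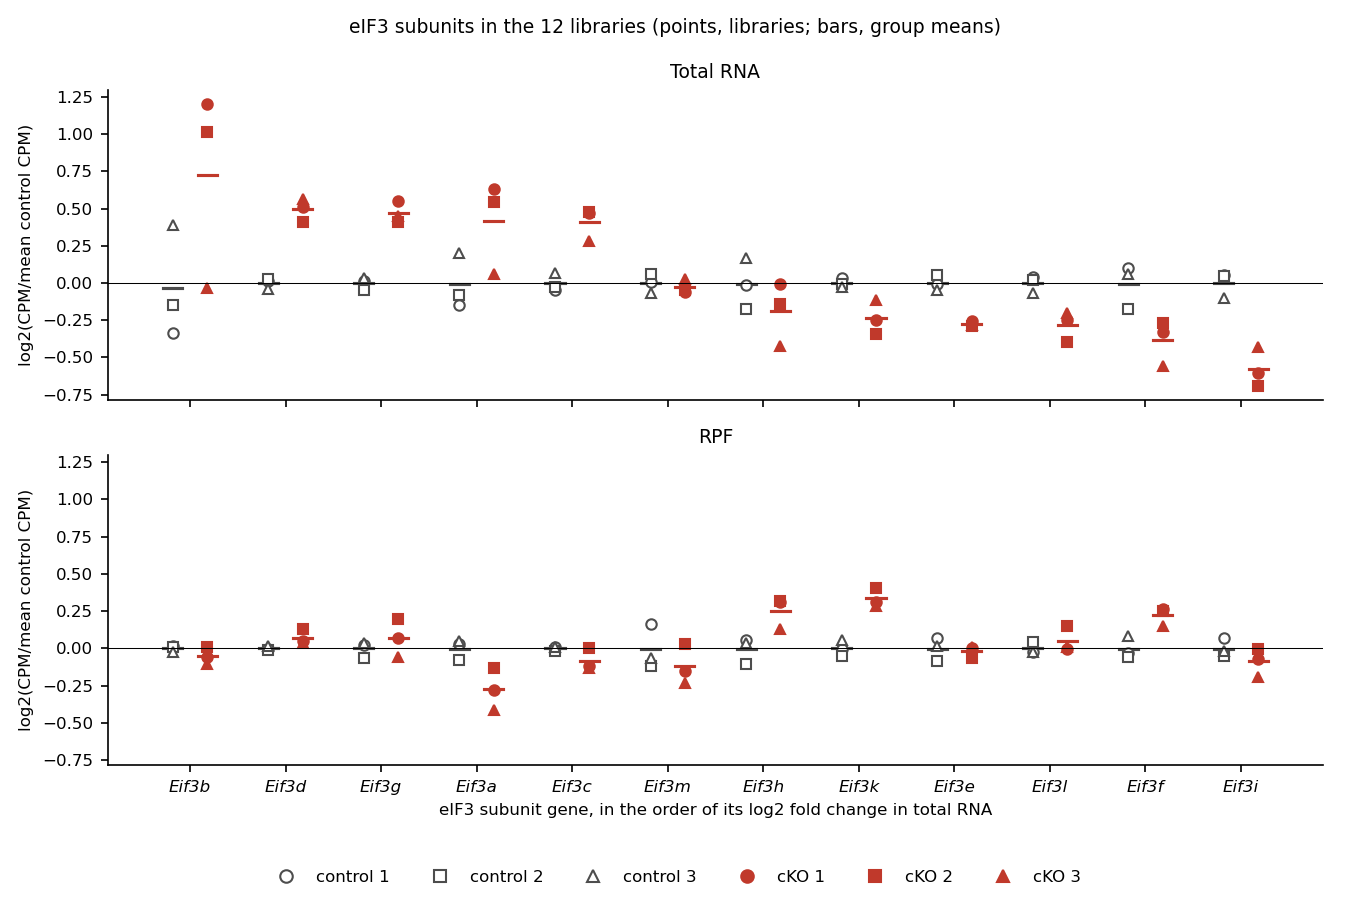
log2 of the CPM over the mean control CPM for each eIF3 subunit in the 6 total RNA libraries (top) and the 6 RPF libraries (bottom), with control samples open, *Rnmt* cKO samples filled and a bar at the mean of each group. Both panels have the same axis: in total RNA the cKO bars run from above to below 0 across the subunits, in RPF they lie closer to 0, and cKO 3 (filled triangle) stands apart for *Eif3a* and *Eif3b* in total RNA.

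Several eIF3 calls depend on single samples. The total RNA calls of *Eif3a* (0.34 to 0.60 over the 6 fits that leave out 1 sample) and *Eif3k* (-0.28 to -0.16) were lost without control 1, control 2, cKO 1 or cKO 2, whereas those of *Eif3c*, *Eif3d*, *Eif3e*, *Eif3f*, *Eif3g*, *Eif3i* and *Eif3l* were kept in all 6 fits. In RPF *Eif3k* (0.30 to 0.36) kept its call in all 6, *Eif3a* (-0.34 to -0.20) lost it without control 1, control 3, cKO 1 or cKO 3, *Eif3f* (0.19 to 0.26) without control 1, control 2, cKO 1 or cKO 2, and *Eif3h* (0.20 to 0.32) in all fits but that without cKO 3. In TE *Eif3k* (0.46 to 0.65) kept it in all 6. *Eif3f* (0.53 to 0.65) lost it without control 1, *Eif3d* (-0.51 to -0.38) without cKO 1, *Eif3c* (-0.54 to -0.46) without control 1 or cKO 1, *Eif3a* (-0.80 to -0.60) and *Eif3i* (0.37 to 0.60) without control 1, control 2, cKO 1 or cKO 2, and *Eif3g* (-0.51 to -0.35) without any control or without cKO 1.

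Levels of the subunits were also unequal before any comparison. Per kilobase of exon, the total RNA of control cells held 491 CPM of *Eif3i* and 54.2 CPM of *Eif3b*, the highest and lowest of the 12, with *Eif3e* (267 ± 9.20, SD) and *Eif3l* (264.5 ± 10.1) next in order and not apart beyond their spread. Per kilobase of coding sequence the RPF of control cells ranged from 221 ± 10.2 CPM for *Eif3a* to 628 ± 27.5 CPM for *Eif3i*. *Eif3a* and *Eif3h* (228 ± 13.8 CPM), and *Eif3i* and *Eif3k* (602 ± 23.3 CPM), were neighbours in that order that differed by less than their spread. The order is uncertain, since reads that aligned in several places were not counted and 64.9, 50.8, 48.5 and 32.3% of the coding words of *Eif3m*, *Eif3e*, *Eif3h* and *Eif3d* are shared with other transcripts, against 0% for *Eif3a*. In cKO cells *Eif3k* led the RPF levels (760 ± 33.6 CPM) and *Eif3i* followed (592 ± 37.9 CPM).

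The eIF2/2B group rose for the most part in total RNA. Of its 8 genes 6 rose, *Eif2s3x* fell and *Eif2b2* did not pass the test (0.15 ± 0.057, adjusted p = 0.053), and the median was 0.47. The median of the differences from the control mean was 0.46, 0.44 and 0.46 in the 3 cKO libraries. In RPF 3 genes rose (*Eif2b1*, *Eif2b3*, *Eif2s1*) and the median was 0.17, and in TE 3 fell (*Eif2b4*, *Eif2b5*, *Eif2s1*) with a median of -0.21.

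*Eif2s1* encodes the alpha subunit of eIF2, whose phosphorylation by the eIF2 kinases holds back initiation. It was at 177, 171 and 170.5 CPM in control and at 322, 325 and 306 CPM in cKO total RNA, 1.84-fold higher with no overlap (0.88 ± 0.055, adjusted p = 1.8e-05). Its RPF were at 258, 189 and 235 CPM against 292, 307 and 270.2 CPM, again without overlap but with a control spread of 34.7 CPM (SD), and the increase was 0.35 ± 0.11 (adjusted p = 0.043). TE of *Eif2s1* decreased by 0.53 (SE 0.13, adjusted p = 0.023).

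*Eif2s2*, the beta subunit, rose in total RNA (0.41 ± 0.060, adjusted p = 0.00079) and not past the test in RPF (0.18 ± 0.078, adjusted p = 0.12). *Eif2s3x*, the X-linked gamma subunit, fell in total RNA (-0.30 ± 0.10, adjusted p = 0.034) and not past the test in RPF (-0.0041 ± 0.097, adjusted p = 0.98). The call of *Eif2s3x* was kept only without cKO 3 among the 6 fits that leave out 1 sample (-0.41 to -0.22). The 3 subunits of eIF2 share 61.9, 85.4 and 95% of the 28-base words of their coding sequences with transcripts of other genes, mostly near-identical copies, and reads that aligned in several places were not counted, so the levels of *Eif2s1*, *Eif2s2* and *Eif2s3x* are uncertain.

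The 5 subunits of eIF2B share none of their coding words with other genes, and 4 of 5 rose in total RNA. *Eif2b3*, of the gamma subunit in the catalytic part of the complex, was at 30.2, 30.6 and 31.1 CPM in control and at 41.5, 48.3 and 43.9 CPM in cKO total RNA (0.54 ± 0.076, adjusted p = 0.00064). In RPF it was at 58.8, 59.4 and 62.4 CPM against 81.4, 93.5 and 75.1 CPM (0.47 ± 0.091, adjusted p = 0.0061). The genotypes were apart in both, and TE differed by -0.07 ± 0.12 (95% interval -0.33 to 0.19). *Eif2b1*, of the alpha subunit in the regulatory part, rose in total RNA (0.50 ± 0.056, adjusted p = 0.00022) and in RPF (0.30 ± 0.073, adjusted p = 0.016).

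*Eif2b5*, the catalytic epsilon subunit, and *Eif2b4*, the delta subunit of the regulatory part, rose in total RNA and did not pass the test in RPF. *Eif2b5* was at 186, 190.1 and 169 CPM in control and at 239.8, 242 and 274 CPM in cKO total RNA, without overlap (0.47 ± 0.075, adjusted p = 0.0012), and at 164, 166 and 171 CPM against 156, 171 and 158 CPM in RPF, with overlap (-0.04 ± 0.060, adjusted p = 0.63). *Eif2b4* was at 50.0, 55.8 and 47.9 CPM against 73.0, 70.4 and 68.0 CPM in total RNA, without overlap (0.46 ± 0.074, adjusted p = 0.0013), and at 125, 114 and 119 CPM against 108, 120.4 and 109 CPM in RPF (-0.09 ± 0.071, adjusted p = 0.38). TE decreased by 0.51 (SE 0.10, adjusted p = 0.0056) for *Eif2b5* and by 0.55 (SE 0.10, adjusted p = 0.0042) for *Eif2b4*, and both calls were kept without any 1 sample.

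The increases of the 6 eIF2/2B genes in total RNA were kept without any 1 sample. In RPF *Eif2b3* (0.39 to 0.54) kept its call in all 6 such fits, *Eif2b1* (0.25 to 0.36) lost it without control 1 or control 3, and *Eif2s1* (0.23 to 0.44) lost it without control 2, control 3, cKO 1 or cKO 2. In TE *Eif2s1* (-0.64 to -0.46) lost it without control 1, control 3 or cKO 1.

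**Figure D4:**
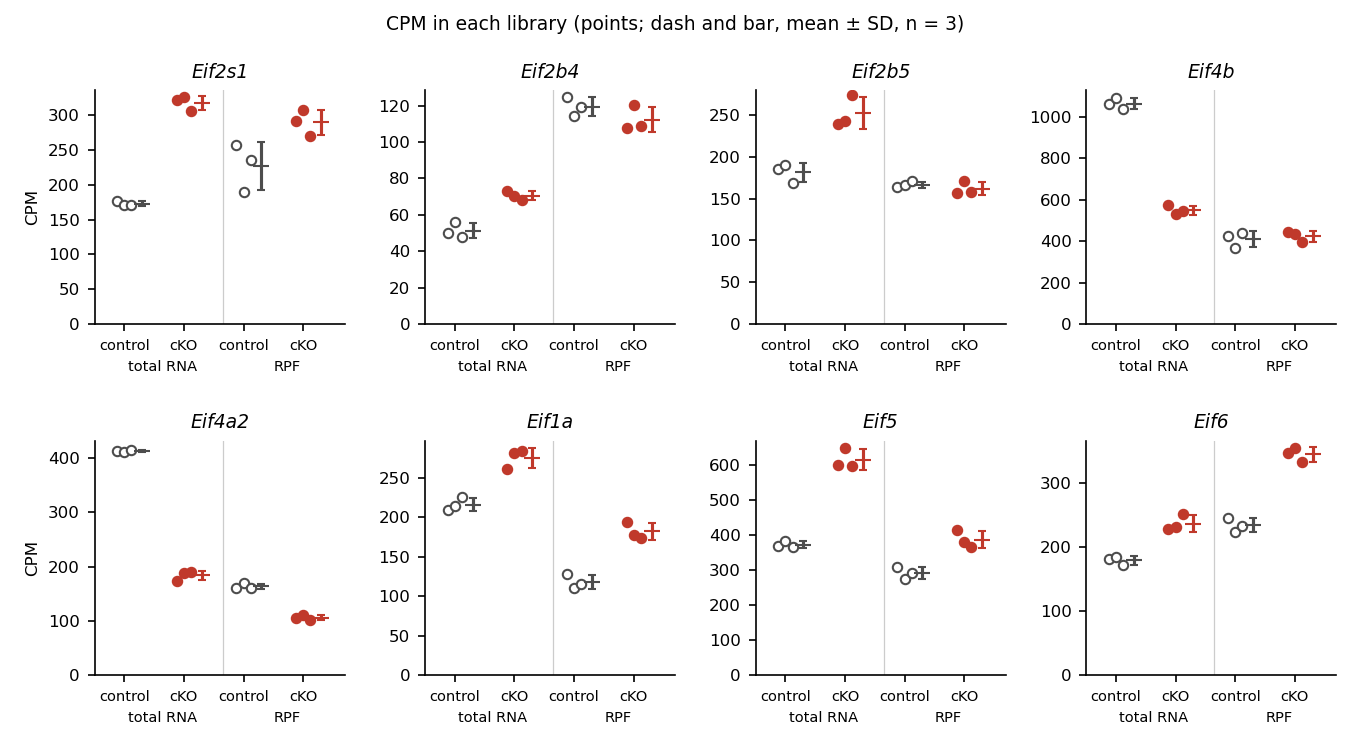
CPM of 8 initiation factor genes in each of the 12 libraries (points; linear axis from 0), with control in grey and *Rnmt* cKO in red, total RNA on the left and RPF on the right of each panel, and the mean ± SD of the 3 samples beside them. *Eif2b4*, *Eif2b5* and *Eif4b* differ between genotypes in total RNA and overlap in RPF, *Eif4a2* is lower in both, and *Eif1a*, *Eif5* and *Eif6* are higher in both.

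The eIF4 group held the 3 largest decreases of the 43 genes in total RNA and the largest in RPF, but no called decrease in TE, where *Eif4g1* or *Eif4g2* was called lower in some other settings. In total RNA *Eif4a2*, *Eif4b* and *Eif4e3* fell, *Eif4e* and *Eif4g2* rose, and the other 6 of 11 did not pass the test, with a median of 0.08. In RPF *Eif4a3* and *Eif4h* rose and *Eif4a2* fell (median 0.05). Neither median was stable: that in total RNA was 0.18 over the 6 members with under 20% of their coding sequence shared and 0.035 without control 3, and that in RPF ranged over the settings tried from 0.011 with no filter on low counts to 0.22 without control 3 or cKO 2, with 0.13 for at least 10 counts in every library. In TE *Eif4b* and *Eif4a2* rose (median 0.24), a median that turned to -0.06 over the same 6 members.

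*Eif4a2*, a paralog of the eIF4A helicase, was at 414, 412 and 416 CPM in control and at 174, 188 and 190.0 CPM in cKO total RNA, a 0.44-fold level without overlap (-1.17 ± 0.059, adjusted p = 9.2e-06). Its RPF were at 161, 169 and 161 CPM against 106, 111 and 101 CPM, also apart (-0.62 ± 0.063, adjusted p = 0.00037). TE rose by 0.55 ± 0.084 (adjusted p = 0.001). All 3 calls were kept without any 1 sample. *Eif4a2* lies around 5 small nucleolar RNA genes on its strand, and 42.4% of its coding words are shared with other transcripts.

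*Eif4a1*, the paralog known to be the main helicase of eIF4F in growing cells, did not pass the test in total RNA, at 81.3, 79.1 and 82.9 CPM against 78.6, 84.7 and 77.4 CPM (-0.01 ± 0.059, 95% interval -0.15 to 0.12). In RPF it was at 11.2, 13.9 and 13.7 CPM against 15.9, 15.3 and 19.9 CPM, without overlap (0.39 ± 0.16, adjusted p = 0.097). Of its coding words 99.4% are shared, so these are the few reads that could be placed. *Eif4a3*, a paralog of the exon junction complex, was at 165, 169 and 151 CPM against 168, 174 and 173 CPM in total RNA (0.08 ± 0.058, adjusted p = 0.25) and rose in RPF from 261, 236 and 249 CPM to 332, 323 and 280.0 CPM (0.33 ± 0.078, adjusted p = 0.015), a call that was lost without control 2 or cKO 1 (0.29 to 0.40 over the 6 fits).

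*Eif4b*, the RNA-binding partner of the helicase, showed the largest TE increase of the 43 genes. Its total RNA was at 1064, 1094 and 1037 CPM in control and at 574, 531 and 544 CPM in cKO libraries, without overlap (-0.95 ± 0.060, adjusted p = 1.8e-05). Footprints of *Eif4b* were at 425, 366 and 439 CPM against 444, 432 and 394 CPM, with overlap (0.05 ± 0.084, 95% interval -0.15 to 0.24). TE rose by 1.00 ± 0.11 (adjusted p = 0.00011), and by 0.90 to 1.07 without any 1 sample, with the call kept. *Eif4h*, which shares that role, rose in RPF (0.27 ± 0.066, adjusted p = 0.016), a call that was lost without cKO 1 (0.23 to 0.33 over the 6 fits).

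*Eif4e*, the cap-binding protein, was at 54.8, 54.4 and 53.6 CPM in control and at 69.9, 73.7 and 59.6 CPM in cKO total RNA, without overlap (0.32 ± 0.085, adjusted p = 0.014). Its RPF were low and spread in control cells, at 25.5, 13.0 and 19.0 CPM against 28.9, 29.6 and 27.1 CPM (0.56 ± 0.21, adjusted p = 0.076), and 80.4% of its coding words are shared. The RPF change of *Eif4e* was 0.35 to 0.82 over the 6 fits that leave out 1 sample, with a call in 1 of them. It was called higher in 3 of 8 other settings, DESeq2 among them. *Eif4e3*, a cap-binding homolog, was at 20.0, 20.1 and 19.4 CPM against 10.1, 8.10 and 11.6 CPM in total RNA, without overlap (-0.99 ± 0.13, adjusted p = 0.00048), but its RPF of at most 4.90 CPM could not show a change of that size (-0.13 ± 0.66, 95% interval -1.65 to 1.39).

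*Eif4g2*, a relative of the scaffold that lacks the eIF4E binding site, rose in total RNA (0.46 ± 0.11, adjusted p = 0.0072) and did not pass the test in RPF (0.03 ± 0.062). *Eif4g3* (0.26 ± 0.13 in total RNA and 0.04 ± 0.079 in RPF) and *Eif4e2*, a cap-binding homolog linked to repression (-0.06 ± 0.098 and 0.22 ± 0.080), passed the test in neither.

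*Eif4g1*, the main scaffold of eIF4F, was at 418, 430.3 and 430.4 CPM in control and at 502, 512 and 441 CPM in cKO total RNA (0.19 ± 0.072, adjusted p = 0.056). Its footprints were at 671, 766 and 659 CPM against 625, 643 and 563 CPM (-0.19 ± 0.083, adjusted p = 0.11). The genotypes did not overlap in either, in opposite directions, and neither difference passed the test in the fit reported here. In total RNA *Eif4g1* was called higher in 3 of 8 other settings, DESeq2 among them. It was also called in 1 of the 6 fits that leave out 1 sample (0.16 to 0.26). Its TE difference of -0.38 ± 0.12 (adjusted p = 0.057) passed it with the sample as a block (adjusted p = 0.028), as did those of *Eif4g2* (adjusted p = 0.029), *Eif1* (adjusted p = 0.0069), *Eif5b* (adjusted p = 0.014) and *Eif3h* (adjusted p = 0.016).

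Among the other 12 factors 7 rose and 2 fell in total RNA (median 0.28), and 3 rose and 1 fell in RPF (median -0.09). Neither median was stable over the 8 of them with under 20% of their coding sequence shared. Of these 8, 3 rose and 2 fell in total RNA (median 0.0016), and 1 rose and 1 fell in RPF (median -0.14). In TE edgeR called 0 of 12 in the fit reported here, with 2 higher and 3 lower at an unadjusted p under 0.05. With the sample as a block it called *Eif1* (adjusted p = 0.0069) and *Eif5b* (adjusted p = 0.014) lower, with no filter on low counts the same pair, and with at least 10 counts in every library or protein-coding genes alone *Eif5* and *Eif5b*. DESeq2 called all 3. *Eif5*, the GTPase-activating protein of eIF2, was at 367, 383 and 366 CPM in control and at 599.5, 649 and 595 CPM in cKO total RNA (0.72 ± 0.061, adjusted p = 6e-05). In RPF it was at 307, 275 and 289.7 CPM against 412, 378 and 366 CPM (0.41 ± 0.070, adjusted p = 0.0038). The genotypes were apart in both.

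*Eif1a*, an eIF1A paralog that serves scanning, was at 209, 214 and 226 CPM against 261, 281 and 284 CPM in total RNA (0.35 ± 0.061, adjusted p = 0.0019). Its RPF of 128, 110.2 and 116 CPM rose to 195, 178 and 174 CPM, the largest increase in RPF of the 43 genes (0.62 ± 0.078, adjusted p = 0.00094). *Eif1ax*, the X-linked paralog, did not pass the test in total RNA (0.04 ± 0.063) or RPF (-0.05 ± 0.058), nor did *Eif1b*, an eIF1 paralog (-0.04 ± 0.061 and -0.13 ± 0.093). *Eif1ad* rose in total RNA (0.20 ± 0.049, adjusted p = 0.0087).

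*Eif6*, which keeps the large subunit from joining too early, was at 182, 185 and 171 CPM against 227, 231 and 251 CPM in total RNA (0.40 ± 0.062, adjusted p = 0.0011). In RPF it was at 245, 224 and 233 CPM against 347, 355 and 333 CPM (0.56 ± 0.060, adjusted p = 0.00045). The genotypes of *Eif1a* and *Eif6* did not overlap in either kind of library, and the total RNA and RPF calls of *Eif5*, *Eif1a* and *Eif6* were kept without any 1 sample.

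*Eif1*, which controls the choice of the start codon, was at 13.2, 15.7 and 18.6 CPM in control and at 29.3, 30.6 and 19.4 CPM in cKO total RNA, where cKO 3 lay just above the highest control (0.74 ± 0.19, adjusted p = 0.013). Its RPF were at 29.3, 29.7 and 30.4 CPM against 33.7, 23.2 and 20.7 CPM (-0.19 ± 0.17, adjusted p = 0.43). The RPF change was -0.43 to -0.07 over the 6 fits that leave out 1 sample, with a call in 1 of them. The total RNA call was lost without control 1 (0.62 to 0.93 over the 6 fits), and 99.0% of the coding words of *Eif1* are shared. *Eif5b*, the GTPase of subunit joining, rose in total RNA (0.63 ± 0.21, adjusted p = 0.032), but lost the call without control 1, control 2, cKO 1 or cKO 2 (0.40 to 0.83).

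*Eif2a*, which is no subunit of eIF2 and serves initiation apart from it, fell in total RNA (-0.63 ± 0.051, adjusted p = 5.2e-05) and in RPF (-0.45 ± 0.062, adjusted p = 0.0014), both kept without any 1 sample. *Eif2d*, a relative in function, was lower in total RNA (-0.17 ± 0.057, adjusted p = 0.034), but this call was lost in all 6 fits without 1 sample (-0.19 to -0.14). *Eif5a*, the hypusinated factor that also serves elongation, rose in total RNA (0.41 ± 0.086, adjusted p = 0.0045), and its RPF per kilobase of coding sequence were the highest of the 43 genes in control cells, at 3664 ± 129.6 CPM (SD, n = 3). Its paralog *Eif5a2* was low in RPF and did not pass the test in total RNA (-0.10 ± 0.079) or RPF (-0.34 ± 0.24).

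The members known as TOP mRNAs were set beside other TOP mRNAs. Of *Eif3a*, *Eif3e*, *Eif3f*, *Eif3h* and *Eif4b*, 1 rose and 3 fell in total RNA (median -0.28), 2 rose and 1 fell in RPF (median 0.05), and 2 rose and 1 fell in TE (median 0.44). All 5 elongation factor genes *Eef1a1*, *Eef1b2*, *Eef1d*, *Eef1g* and *Eef2* fell in total RNA (median -1.15), 1 fell in RPF (median -0.27) and 4 rose in TE (median 0.94). Of 77 ribosomal protein genes 69 fell in total RNA (median -0.73), 4 rose and 2 fell in RPF (median -0.06) and 45 rose in TE (median 0.73).

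Among 27 genes of the pathway outside the 43, for poly(A)-binding proteins, eIF2 kinases and phosphatases, 4E-BPs and helpers of scanning and recycling, 26 were tested in total RNA, where 11 rose and 4 fell (median 0.14). In RPF 5 of 25 rose and 2 fell (median -0.0028), and in TE 1 rose and 6 fell (median -0.02). Of all genes tested, 26.3% rose and 28.0% fell in total RNA, 14.1% and 15.7% in RPF, and 3.22% and 6.55% in TE. *Larp1*, the TOP-binding protein, was at 108, 116 and 127 CPM in control and at 248, 314 and 205 CPM in cKO total RNA (1.13 ± 0.14, adjusted p = 0.00042). In RPF *Larp1* rose from 215, 222 and 252 CPM to 306, 333 and 321 CPM (0.48 ± 0.073, adjusted p = 0.0023), and TE decreased by 0.65 (SE 0.18, adjusted p = 0.036). Its genotypes were apart in both kinds of library.

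*Dhx29*, a helicase that helps scanning through structured leaders, rose in total RNA from 49.9, 52.3 and 53.7 CPM to 103, 111 and 109 CPM (1.05 ± 0.061, adjusted p = 1.4e-05). Its RPF of 86.1, 79.4 and 87.6 CPM against 73.0, 84.3 and 80.5 CPM overlapped (-0.09 ± 0.079, adjusted p = 0.41), and TE decreased by 1.15 (SE 0.097, adjusted p = 1.7e-05). *Abce1*, which splits ribosomes for reuse, went in total RNA from 468, 457 and 462 CPM to 741, 755 and 751 CPM (0.70 ± 0.053, adjusted p = 3.9e-05) with RPF at 434, 356 and 391 CPM against 423, 429.8 and 389 CPM (0.07 ± 0.083, adjusted p = 0.54). *Eif4ebp2*, a 4E-BP that holds back eIF4E, rose in total RNA (0.43 ± 0.090, adjusted p = 0.0043) and decreased in TE by 0.60 (SE 0.11, adjusted p = 0.003). It was named after its values were seen.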

How the data were processed

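The deposited counts are whole numbers per gene that STAR 2.5.2b gave for uniquely placed reads on the mouse build mm10, against the basic gene models of GENCODE vM12, and are not normalized. Per the authors, the second read of each pair was the input because the first had failed, with Cutadapt for adapters and a Bowtie step against rRNA and tRNA sequences before it. A deposited table of 10126 genes holds normalized signal values of each library, which are the counts of the reverse strand times a factor of the library, beside the authors' own log2 fold changes, p-values and adjusted p-values. Those comparisons were not used, and the table served to choose the strand and the members. Symbols were taken from GENCODE vM21, in which 49326 of 49585 genes and all 43 members were found.

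Each kind of library was fitted by itself in edgeR 4.0.16 (R 4.3.3), with TMM factors, the quasi-likelihood test and genes over a CPM of 1 in 3 or more of 6 libraries. TE was tested as the interaction term of a fit to all 12. Adjusted p-values are Benjamini-Hochberg values over all genes tested. RiboDiff was not used here. Standard errors were derived from the test, as the absolute log2 fold change over the square root of its F statistic. Confidence intervals are these errors times a t quantile on either side of the estimate. Standard errors include library spread but not duplicate reads, which the counts cannot show. Mitochondrial rRNA made up 18.7 to 23.6% of total RNA gene counts but 2.30 to 4.51% of those in RPF. The labels number the samples without naming mice, so p-values measure the spread between these samples, which may be technical. Deviations from the group mean correlated between total RNA and RPF libraries of the same genotype and number (0.16, 0.20 and 0.38 in control, 0.11, 0.36 and 0.29 in cKO cells, over genes), so the numbers pair these libraries.

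All members may be named. Values by library are given for the 2 members of each group with the largest called change in each comparison, for 13 set members whatever their result, and for the 3 pathway genes with the largest called change in each of total RNA and TE. Members and lists were chosen with earlier results of these data known. The fits were tested on simulated data. Other settings tried were DESeq2 1.42.0, edgeR's exact test, library sizes in place of TMM, no filter or a minimum of 10 counts, both strands, protein-coding genes, blocks for the number or the sample, each sample left out, and, chosen after seeing the data, members with little shared sequence.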

Additional observations from a re-analysis of the deposited data

How the results depend on the processing

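Over the alternatives, the counts of called members in total RNA and in RPF stayed within 1.5 times those reported, with exceptions. These were the fits without 1 sample and the choice of the 27 members with little shared sequence. Of those 27, 11 rose and 7 fell in total RNA, and 6 rose and 2 fell in RPF. Members decreased in TE were 12 with DESeq2, 11 with protein-coding genes only and 11 with the sample as a replicate block, against 7. Library size without TMM moved the total RNA medians to -0.069 (eIF3), 0.50 (eIF2/2B) and 0.12 (eIF4), and a minimum of 10 counts in every library moved the RPF median of eIF4 to 0.13. Among members with little shared sequence the eIF3 median turned to 0.090 in total RNA and to -0.032 in TE, and the eIF4 median went to 0.18 in total RNA and turned to -0.055 in TE, since fewer genes are counted. The median of the other factors went to 0.0016 in total RNA, against 0.28, and to -0.14 in RPF, against -0.09. With each sample left out in turn, the total RNA medians ranged from -0.12 to -0.052 (eIF3), 0.42 to 0.51 (eIF2/2B) and 0.035 to 0.12 (eIF4), the RPF median of eIF4 from 0.050 to 0.22 and the TE median of eIF3 from 0.0080 to 0.14, RPF increases from 6 to 11, TE increases from 3 to 7 and TE decreases from 3 to 12. The causes were not tested. Numbers did not pair control with cKO libraries (correlations -0.23, -0.17 and -0.48 in total RNA and 0.28, -0.12 and 0.12 in RPF). A replicate block by number gave 17 increases and 8 decreases in total RNA (against 19 and 11, without *Eif2s3x*, *Eif3a*, *Eif3k*, *Eif5b* and *Eif2d*), 10 and 2 in RPF, and 5 and 7 in TE, of which 6 decreases were among the 7 reported and *Eif4g1* was added. The sample block, which applies to TE alone, added 5 calls and lost none. Low RPF counts leave wide errors for *Eif4e3* (SE 0.66), *Eif5a2* (0.24) and *Eif4e* (0.21), and edgeR's exact test was not run for TE.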
